A study of Bos taurus with 48 samples.

Results

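Transcription factors expressed in oocytes were followed through 48 bovine (Bos taurus) libraries by the levels of 5 genes: FIGLA (ENSBTAG00000008905), SALL4 (ENSBTAG00000003101), ZGLP1 (ENSBTAG00000038976), ELF3 (ENSBTAG00000008756) and SIX3 (ENSBTAG00000027017). They were taken by their Ensembl identifiers, as 5 of the 24616 genes in the deposited table of FPKM, fragment counts divided by transcript length and by library size. The study collected 16 cumulus-oocyte complexes (COCs) from ovaries of slaughtered cows and chose them by morphology, with no treatment and no genotype group. Trypsin and pipetting parted each COC into the outer cumulus cells (outerCCs), the layers nearest to the oocyte (innerCCs) and the denuded oocyte, so that each of the 3 sample types has 16 libraries and the COC number links the 3 samples of a COC. The libraries were made from polyA+ RNA after SMART-Seq2 amplification of the cDNA. RNA was extracted with TRIzol from cumulus cells, while oocytes were lysed directly. This difference and the sample type cannot be told apart when oocytes are compared with cumulus cells. The sources used here do not say which COCs came from the same cow, and p-values therefore measure the spread between these COCs.

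Transcription factors of the oocyte act in succession: some are needed to assemble and grow the follicle, others serve the gamete or the early embryo. FIGLA is a basic helix-loop-helix factor of germ cells that is needed for primordial follicles to form and is known to activate the zona pellucida genes. SALL4 is a zinc finger factor of oocytes and pluripotent stem cells that works with the NuRD repressor complex, ZGLP1 is a GATA-like zinc finger protein known for switching on the oogenic programme in female germ cells, ELF3 is an ETS factor best known from epithelia, and SIX3 is a homeobox factor best known from the forebrain and eye. In the RefSeq annotation of the ARS-UCD2.0 assembly, which is not the build of the deposited values, none of the 5 genes overlapped another gene. FIGLA lay between CLEC4F and ADD2, ZGLP1 between ICAM5 and FDX2, and SIX3 beside SIX2, a member of its own family.

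Some libraries stood apart and touch the values that follow. InnerCC libraries of COCs 176 to 184 had 648 to 2639 genes over 0.5 FPKM and those of COCs 185 to 192 had 5876 to 10295, while oocytes had 8525 to 11340 and outerCCs 9054 to 11851. The sets of COCs were read from these gene numbers and are not named in the labels. The study fitted a collection batch that the labels do not give, so whether the sets match it is unknown. Commonly used genes were listed at 0 in the innerCC libraries with few genes, so cumulus values are given as library values or ranges. The oocytes of COCs 180 and 190 had the lowest FPKM totals, 367112 and 410999, against a median of 609585 over the 16 oocytes. The outerCC library of COC 191 and both cumulus libraries of COC 190 held the most FPKM of 8 oocyte markers. No counts were used here, so the read depth behind each value is unknown.

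FIGLA was the most abundant of the 5 in oocytes, at 69.7 FPKM in the oocyte of COC 177, a median of 168 and 376 FPKM in the oocyte of COC 189 (mean 187 ± 89.9 SD, n = 16). The oocytes of COCs 185 to 192 ranged from 123 to 376 FPKM and those of COCs 176 to 184 from 69.7 to 173, so the sets overlapped and the 6 highest oocytes were all of COCs 185 to 192. The level of FIGLA was above 93.8% of the 10327 genes detected in oocytes, that is, over 0.5 FPKM in 8 or more of the 16 oocytes.

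ZGLP1 came next, at 1.51 FPKM in the oocyte of COC 180, a median of 100 and 225 FPKM in the oocyte of COC 185 (mean 95.4 ± 69.9 SD, n = 16). The highest oocyte had 149 times the FPKM of the lowest. The oocyte of COC 180 was alone at this low level, and the oocyte of COC 176 came next with 10.2 FPKM. The oocytes of COCs 185 to 192 had 67.9 to 225 FPKM and those of COCs 176 to 184 had 1.51 to 120, an overlap that 2 oocytes of the earlier set, of COCs 179 and 181, made.

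SALL4 ranged from 2.5 FPKM in the oocyte of COC 176, through a median of 8.33, to 66.0 FPKM in the oocyte of COC 190 (mean 13.1 ± 16.1 SD, n = 16). COC 180 had the next highest value, 33.0 FPKM, and the remaining 14 oocytes stayed at or under 17.7. These 2 oocytes are those with the lowest FPKM totals.

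ELF3 ranged from 0.561 FPKM in the oocyte of COC 188, through a median of 3.85, to 42.4 FPKM in the oocyte of COC 190 (mean 8.37 ± 11.2 SD, n = 16). The oocyte of COC 186 followed with 27.0 FPKM, and 12 of the 16 oocytes were under 10 FPKM. The oocytes with the lowest and the highest ELF3 both belonged to COCs 185 to 192, where it varied 75.6-fold against 6.99-fold in COCs 176 to 184.

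SIX3 was the least abundant, at 0.773 FPKM in the oocyte of COC 181, a median of 2.55 and 7.80 FPKM in the oocyte of COC 184 (mean 3.16 ± 2.03 SD, n = 16). The oocyte of COC 190 came next with 7.31 FPKM, and its range in COCs 185 to 192, 1.74 to 7.31 FPKM, lay within that of COCs 176 to 184. All 5 genes were over 0.5 FPKM in all 16 oocytes, so the label of genes expressed in oocytes holds in each oocyte.

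**Figure D1:**
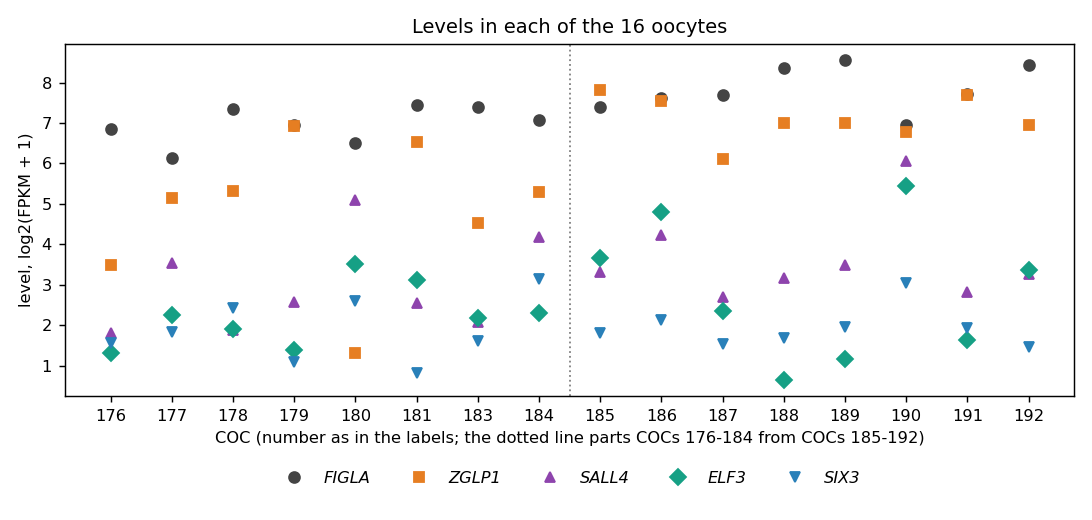
Level of each gene, as log2(FPKM + 1), in the 16 oocytes, with 1 marker per gene and oocyte; COC numbers run along the x axis and the dotted line parts the sets of COCs read from the innerCC libraries. FIGLA (circles) stayed above 69 FPKM in every oocyte, ZGLP1 (squares) fell to 1.51 FPKM in the oocyte of COC 180, and SALL4 (upward triangles) and ELF3 (diamonds) were at their highest in the oocyte of COC 190.

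The order of the levels, which FPKM sets per length of transcript, was FIGLA, ZGLP1, SALL4, ELF3 and SIX3. FIGLA was the highest of the 5 in 15 oocytes and ZGLP1 in the oocyte of COC 185, where it had 225 FPKM against 168 for FIGLA. In the oocytes of COCs 179 and 191 both were nearly level, with 120 FPKM of ZGLP1 and 123 of FIGLA in the former and 207 and 211 in the latter. Neighbours in the order were compared within oocytes on log2(FPKM + 1), 4 pairs in all, with an exact two-sided sign-flip permutation test. The order was taken from the mean FPKM in these same oocytes, so the pairs and their directions were not set beforehand. FIGLA exceeded ZGLP1 by 1.44 ± 1.45 (SD) in 15 of 16 oocytes (exact permutation p = 0.000519, adjusted p = 0.00134). ZGLP1 exceeded SALL4 by 2.67 ± 2.11 in 15 of 16 (exact permutation p = 0.000671, adjusted p = 0.00134), with COC 180 as the exception. SALL4 exceeded ELF3 by 0.73 ± 1.01, in 10 of 16 oocytes (exact permutation p = 0.0113, adjusted p = 0.0150). ELF3 and SIX3 did not differ beyond their spread, with a difference of 0.65 ± 1.25 and ELF3 higher in 10 of 16 (exact permutation p = 0.0546, adjusted p = 0.0546).

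The spread between oocytes set the genes apart in another order. The SD of log2(FPKM + 1) was 1.74 for ZGLP1, 1.33 for ELF3, 1.15 for SALL4, 0.67 for FIGLA and 0.64 for SIX3, against a median of 0.603 over the 6702 genes that were over 0.5 FPKM in all 16 oocytes. On this scale ZGLP1 was thus more variable than 99.9% of these genes, ELF3 than 98.7% and SALL4 than 96.6%, while FIGLA and SIX3 stood at the 60.5 and 55.6 percentiles. The coefficient of variation, the SD of FPKM over its mean, put ELF3 first. It was 1.34 for ELF3, 1.22 for SALL4, 0.73 for ZGLP1, 0.64 for SIX3 and 0.48 for FIGLA. The study names ELF3 among the most variable of the genes it detected in all 16 of these oocytes. Neither the spread of ELF3 nor its detection in every oocyte is therefore independent evidence. These genes were also parted by mean level into 10 classes of near equal size, and each factor was set against its own class. There, ZGLP1 was above 99.9% of the genes, ELF3 above 99.7%, SALL4 above 97.3%, SIX3 above 69.6% and FIGLA above 68.6%. Without the oocytes of COCs 180 and 190, the SD of SALL4 was 0.77, above that of 88.4% of the 6702 genes and of 81.8% of its class.

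Single oocytes carried part of the spread. Without the oocyte of COC 180 the SD of ZGLP1 was 1.26, at the 99.3 percentile, and that of ELF3 was larger, 1.35, at the 99.6 percentile. Without that of COC 190 the SD of SALL4 was 0.92, at the 89.2 percentile, and the SD of ELF3 was 1.13, at the 96.9 percentile. Without both oocytes, an alternative chosen after seeing the data, the SD was 0.77 for SALL4, 1.30 for ZGLP1 and 1.12 for ELF3, at the 88.4, 99.5 and 98.7 percentiles.

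Covariation between oocytes was computed on log2(FPKM + 1) for the 10 pairs of genes, with two-sided permutation tests of 100000 resamples and adjustment over the 10 pairs. Of these, 2 pairs passed an adjusted p of 0.05, both with SALL4. Pearson's r of SALL4 with ELF3 was 0.68 (permutation p = 0.00456, or 0.0228 after adjustment). Their Spearman's rho of 0.56 did not pass (permutation p = 0.0261, or 0.0869 after adjustment). SALL4 with SIX3 had the same r of 0.68 (permutation p = 0.00395, or 0.0228 after adjustment), and here rho, 0.64, passed too (permutation p = 0.00857, or 0.0428 after adjustment). The study names SALL4 and SIX3 among genes of its co-expression clusters, made from these oocytes, so this pair is not independent evidence.

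Both relations depended on the oocyte of COC 190: without it, r was 0.49 for SALL4 with ELF3 (adjusted permutation p = 0.201) and 0.55 for SALL4 with SIX3 (adjusted permutation p = 0.158). Without the oocyte of COC 180, r was 0.67 and 0.64, close to that of all 16 oocytes, and the adjusted permutation p was 0.0541 for both. COCs 180 and 190 held the 2 oocytes farthest from the median SALL4, and without both of them r was 0.42 for SALL4 with ELF3 (permutation p = 0.130) and 0.45 for SALL4 with SIX3 (permutation p = 0.102). These 2 oocytes also had the lowest FPKM totals, and across the 16 oocytes SALL4 had an r of -0.71 with the FPKM total (rho -0.29), SIX3 -0.67 (rho -0.38) and ELF3 -0.35 (rho -0.04). The part of the totals in the relations was not tested. After each oocyte was scaled to the same total, r was 0.72 for SALL4 with ELF3 (permutation p = 0.00209, adjusted p = 0.0104) and 0.77 for SALL4 with SIX3 (permutation p = 0.000820, adjusted p = 0.00820). Because this scaling raises both genes of a pair in the oocytes with low totals, those of COCs 180 and 190, it cannot show that part.

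Within the sets of COCs, the directions were the same. The oocytes of COCs 180 and 190 had the highest SALL4 of their sets, and r within the sets was not computed without them. SALL4 and ELF3 had an r of 0.66 in the 8 oocytes of COCs 176 to 184 (exact permutation p = 0.0751, adjusted p = 0.490) and 0.74 in the 8 of COCs 185 to 192 (exact permutation p = 0.0142, adjusted p = 0.0712). SALL4 and SIX3 had 0.58 (exact permutation p = 0.134, adjusted p = 0.490) and 0.93 (exact permutation p = 0.00662, adjusted p = 0.0662). With the set means subtracted, r was 0.65 and 0.70 for these pairs (adjusted permutation p = 0.0310 for both).

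FIGLA and ZGLP1 had an r of 0.58 over the 16 oocytes, which missed the threshold (permutation p = 0.0184, or 0.0612 after adjustment). Their rho of 0.69 passed it (permutation p = 0.00387, or 0.0387 after adjustment). Both genes were mostly higher in COCs 185 to 192, and within the sets r was 0.41 (exact permutation p = 0.311) and -0.13 (exact permutation p = 0.759), so the relation did not hold within COCs 185 to 192. With the set means subtracted it was 0.22 (permutation p = 0.422). Without the oocytes of COCs 177 and 189, the farthest from the median FIGLA, r was 0.62 (permutation p = 0.0198).

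FIGLA had an r below 0 with the 3 less abundant genes in both sets, of unlike size, and none passed the adjustment. In COCs 176 to 184, r was -0.08 with ELF3 (exact permutation p = 0.861) and -0.20 with SIX3 (exact permutation p = 0.641). In COCs 185 to 192 it was -0.73 with ELF3 (exact permutation p = 0.0452) and -0.67 with SIX3 (exact permutation p = 0.0518), with an adjusted p of 0.130 for both. For FIGLA with SALL4, r was -0.56 (exact permutation p = 0.147) in COCs 176 to 184 and -0.58 (exact permutation p = 0.124) in COCs 185 to 192, against -0.20 over all 16 (permutation p = 0.465). With the set means subtracted r was -0.57 (permutation p = 0.0213, adjusted p = 0.0711), and with each oocyte scaled to the same FPKM total and no set means subtracted it was 0.04. Over the 16 oocytes, the remaining 6 pairs, those of FIGLA with ELF3 and SIX3 included, had r between -0.25 and 0.37, with permutation p of 0.159 or more.

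**Figure D2:**
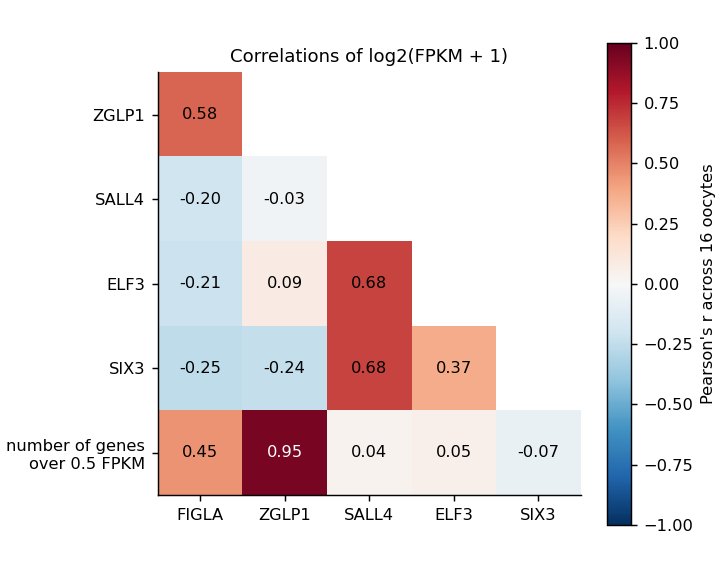
Pearson's r of log2(FPKM + 1) across the 16 oocytes, for each pair of the 5 genes and for each gene with the number of genes over 0.5 FPKM in the same oocyte; colour runs from -1 (blue) to 1 (red). ZGLP1 and the number of genes had the strongest relation, 0.95, and SALL4 had 0.68 with both ELF3 and SIX3.

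The number of genes over 0.5 FPKM is a property of each library, and ZGLP1 followed it closely. Across the 16 oocytes r was 0.95 (permutation p = 1e-05, the smallest that 100000 resamples can give, adjusted p = 5e-05). By rank, rho was 0.91 (permutation p = 2e-05, or 0.0001 after adjustment). Without the oocytes of COCs 176 and 180, which had the fewest genes, r was 0.86 (permutation p = 7e-05). It was 0.97 within COCs 176 to 184 (exact permutation p = 9.92e-05, adjusted p = 0.000496) and 0.82 within COCs 185 to 192 (exact permutation p = 0.0155, adjusted p = 0.0776).

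Of the 10327 genes detected in oocytes, 3 had a larger absolute r with the number of genes than ZGLP1, against a median absolute r of 0.388. The correlations of the other 4 genes with the number of genes were 0.45 for FIGLA (rho 0.46, permutation p = 0.0831, adjusted p = 0.208), 0.04 for SALL4, 0.05 for ELF3 and -0.07 for SIX3, and none passed the adjustment. The number of genes and the level of ZGLP1 come from the same library, and the part of one in the other was not tested. Adjusting the pairs for the number of genes left r at 0.56 for FIGLA with ZGLP1 and at 0.68 for both pairs with SALL4. The pair of ZGLP1 and SIX3 went from -0.24 to -0.54 with this adjustment (permutation p = 0.0309, adjusted p = 0.0772) and did not pass.

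**Figure D3:**
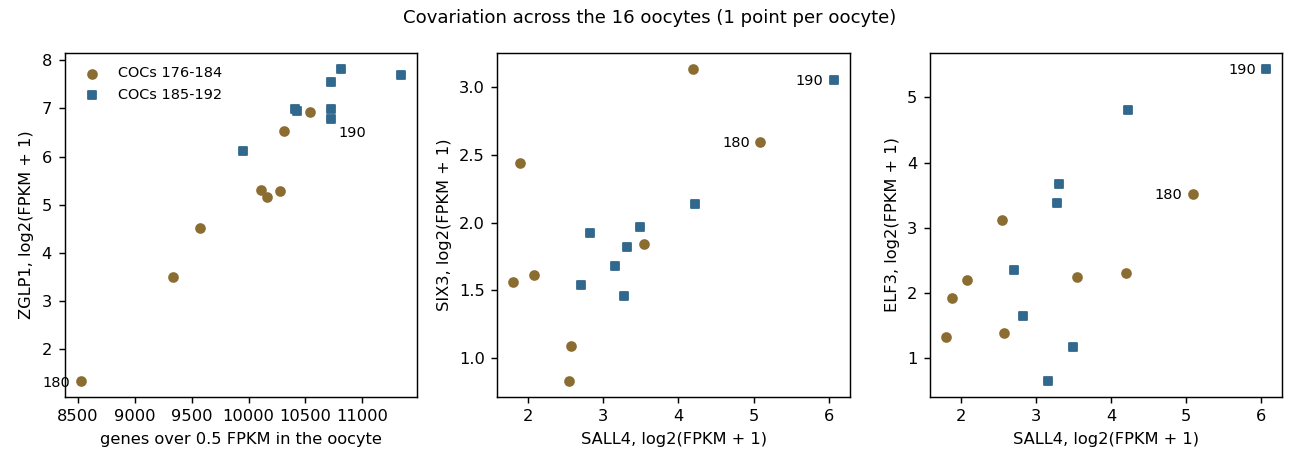
Points are the 16 oocytes, circles for COCs 176 to 184 and squares for COCs 185 to 192, with the oocytes of COCs 180 and 190 labelled. ZGLP1 rose with the number of genes over 0.5 FPKM (left, r = 0.95), and in the plots of SIX3 (middle) and ELF3 (right) against SALL4 the oocyte of COC 190 lay at the high end of both axes.

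The genes whose levels were most like those of each factor across the 16 oocytes are given as a description, among the 25.7% of oocyte genes for which a symbol was at hand. All values of an oocyte share its library and its FPKM total. ZGLP1 was most like CNTD2 (r = 0.98), KCNN3 (0.98), which encodes a calcium-activated potassium channel, and GEMIN8 (0.97), a subunit of the SMN complex. Their own r with the number of genes was 0.92 to 0.94. SALL4 was most like GAK (0.97), a kinase of clathrin uncoating, FCHSD1 (0.96) and GID4 (0.95), a substrate receptor of a ubiquitin ligase, and without the oocytes of COCs 180 and 190 these were 0.91, 0.91 and 0.87. SIX3 was most like FBLN5 (0.86), an extracellular matrix protein, TGFBRAP1 (0.84) and AGFG1 (0.83). FIGLA was most like HOXD3 (0.84), a homeobox factor, BAALC (0.80) and ATG16L1 (0.80), an autophagy protein, and ELF3 was most like SH2B3 (0.81), an adaptor protein, ENHO (0.80) and MED19 (0.79), a subunit of the Mediator complex.

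The number of such partners differed widely between the 5. SALL4 had an absolute r over 0.85 with 573 genes, 300 of them positive and 273 negative, and ZGLP1 with 325, of which 323 were positive. ELF3 and SIX3 had 4 each and FIGLA 0, while the median over oocyte genes was 13. Without the oocytes of COCs 180 and 190, SALL4 had 229 and ZGLP1 407, FIGLA and SIX3 1 each and ELF3 3, against a median of 8. Since the study names SALL4 and SIX3 among genes of its co-expression clusters, made from these oocytes, their counts are not independent evidence.

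In cumulus libraries the 5 genes were mostly listed at 0 or at low values. Each cumulus library pools many cells, so fewer cells with a transcript and less of it per cell cannot be told apart. FIGLA was listed at 0 in 11 of 16 innerCCs and in 13 of 16 outerCCs, with highest values of 5.56 FPKM in the innerCC of COC 187 and 31.8 FPKM in the outerCC of COC 191. ZGLP1 was listed at 0 in 13 innerCCs and 11 outerCCs. Its highest values were 31.1 FPKM in the innerCC of COC 190 and 27.8 and 22.1 FPKM in the outerCCs of COCs 191 and 190, and every other cumulus library had 3.69 FPKM or less.

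SALL4 was above 0 in more cumulus libraries than the other 4 genes taken over both layers, 10 innerCCs and 9 outerCCs, at up to 1.69 FPKM in the innerCC of COC 189 and 1.45 in the outerCC of COC 191. ELF3 never reached 0.5 FPKM in cumulus cells, with highest values of 0.287 FPKM in innerCCs and 0.479 in outerCCs. SIX3 was listed at 0 in 14 innerCCs and 13 outerCCs. The innerCC of COC 176 was alone with 9.80 FPKM, above all 16 oocytes and above the 1.95 FPKM in its own oocyte, and the other 4 genes were listed at 0 in that library.

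**Figure D4:**
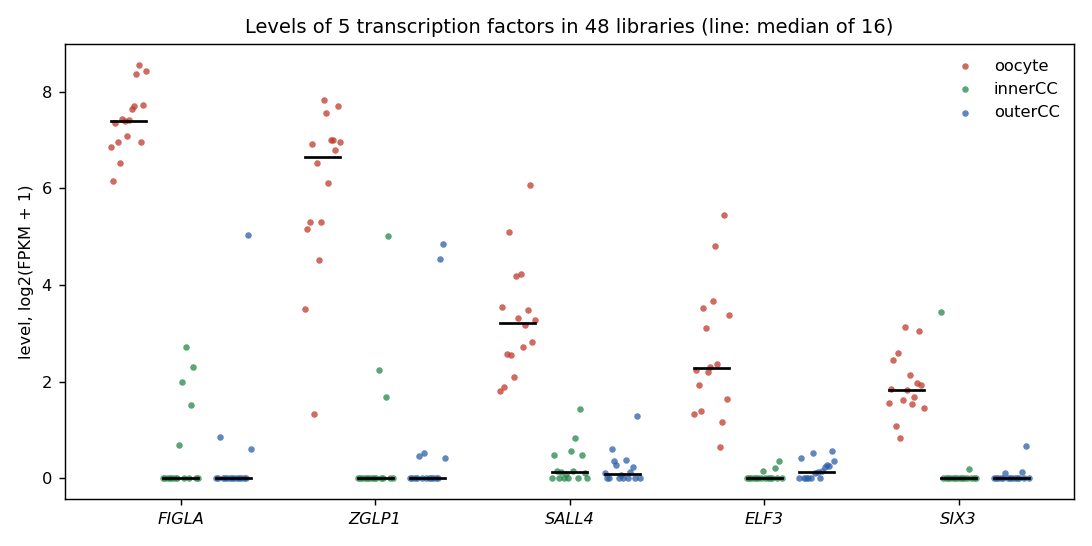
Level of each gene, as log2(FPKM + 1), in the 16 oocyte (red), 16 innerCC (green) and 16 outerCC (blue) libraries, with 1 point per library and a line at the median. Oocyte points lay above nearly all cumulus points, and the exceptions among cumulus libraries included 9.80 FPKM of SIX3 in an innerCC and 31.1 FPKM of ZGLP1 in another.

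The oocyte levels were compared with those of each cumulus layer with limma on log2(FPKM + 1), fitted to 12428 genes with Benjamini-Hochberg adjustment over all of them and a false discovery rate (FDR) of 0.01. All 5 genes passed the filter on low values through the oocytes alone, and all 5 are in the study's list of genes expressed only in oocytes, made from these libraries, so their direction is not independent evidence. All 5 were higher in oocytes than in outerCCs, as were 43.4% of all genes tested, and all 5 were higher than in innerCCs, as were 63.2%. Against outerCCs the log2 fold change was 7.0 ± 0.34 (SE) for FIGLA (limma adjusted p = 7.63e-20), 5.29 ± 0.54 for ZGLP1, 3.08 ± 0.29 for SALL4, 2.38 ± 0.32 for ELF3 and 1.86 ± 0.17 for SIX3. Against innerCCs it was 6.83 ± 0.29 for FIGLA (limma adjusted p = 3.25e-20), 5.41 ± 0.53 for ZGLP1, 3.02 ± 0.30 for SALL4, 2.52 ± 0.33 for ELF3 and 1.69 ± 0.27 for SIX3. The largest limma adjusted p of the 5 was 1.83e-08 against outerCCs, for ELF3, and 9.06e-07 against innerCCs, for SIX3. A fold change on this scale understates that of genes at low FPKM. With log2(FPKM + 0.1) the fold change against outerCCs was 5.44 for SALL4, 4.49 for ELF3 and 4.50 for SIX3, so that ELF3 and SIX3 were level. After scaling to the same 75th percentile, which left out 4 innerCC libraries, SALL4 did not pass against innerCCs (limma adjusted p = 0.180, log2 fold change 0.77 ± 0.49). The innerCC libraries of COCs 177, 178, 180 and 183 were kept, with 75th percentiles of 0.0753 to 0.225 FPKM against 3.63 or more in the others kept. The scaling thus multiplied their low values far more than those of the other libraries, and its part in this result was not tested.

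Within COCs, each gene was higher in the oocyte than in the outerCCs in 16 of 16 COCs, and higher than in the innerCCs in 16 of 16 for all but SIX3, where COC 176 was the exception. The share of all genes with such counts was not computed. Because the 5 genes passed the filter through the oocytes alone, these counts are not independent evidence. Every oocyte library lay above every outerCC library for 4 of the 5 genes, which 13.6% of all genes tested also showed, and above every innerCC library for FIGLA, SALL4 and ELF3, as 20.1% did. ZGLP1 overlapped in both comparisons: the oocyte of COC 180 had 1.51 FPKM, less than the innerCCs of COCs 186, 189 and 190 and the outerCCs of COCs 190 and 191. In COCs 185 to 192 alone, all 5 genes were higher in oocytes than in outerCCs, as were 38.3% of all genes, and than in innerCCs, as were 48.8%. In COCs 176 to 184 alone, all 5 were higher than in outerCCs (36.1% of all genes) and 4 were higher than in innerCCs (73.9% of all genes). SIX3 did not pass there (limma adjusted p = 0.0128, log2 fold change 1.46 ± 0.49), with 9.80 FPKM in the innerCC of COC 176. Without COC 176 and with the other 15 COCs, the log2 fold change of SIX3 against innerCCs was 1.93 ± 0.18 (limma adjusted p = 3.71e-11).

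Between the cumulus layers, limma called 0 of the 5 genes. Of all genes tested, 77.4% were lower in innerCCs and 0.0% higher. The 5 genes were near 0 in outerCCs, with medians of 0 FPKM for FIGLA, ZGLP1 and SIX3, 0.0605 for SALL4 and 0.0993 for ELF3. A lower level in innerCCs could therefore hardly be called, and the count of 0 does not set them apart from other genes. The log2 fold changes of innerCCs against outerCCs ran from -0.14 ± 0.07 for ELF3 to 0.17 ± 0.39 for FIGLA. At an unadjusted p under 0.05, ELF3 alone of the 5 passed, lower in innerCCs (limma p = 0.0492, adjusted p = 0.0592). At that threshold, 10346 of the 12428 genes tested were lower in innerCCs and 4 higher, so this does not set ELF3 apart. Within COCs 185 to 192, where 1.53% of all genes were lower in innerCCs and 0.0% higher, 0 of the 5 were called as well, and 0 within COCs 176 to 184, where 80.4% were lower and 0.0% higher.

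The outerCC library of COC 191 gave all 5 genes their highest outerCC value. These values were 15.1% of the FPKM in the oocyte of that COC for FIGLA, 13.4% for ZGLP1, 23.7% for SALL4, 22.4% for ELF3 and 21.2% for SIX3. The 8 oocyte markers GDF9, BMP15, DAZL, DDX4, ZAR1, NLRP5, YBX2 and KPNA7 were at 13.3% to 31.8% of that oocyte, with a median of 21.9%, and 7 of the 8 had their highest outerCC value there. Summed over the 8 markers, this library had 462 FPKM, and the other outerCCs had 0.258 to 66.1. The oocyte of COC 191 in turn had the highest sum of 5 cumulus markers among oocytes, 162 FPKM, against 23.1 for the next. The part of oocyte RNA in the cumulus values of the 5 genes was not tested. Without COC 191, the log2 fold change of FIGLA between oocytes and outerCCs was 7.29 ± 0.20 (limma adjusted p = 5.45e-27).

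COC 190 differed from this pattern. Its innerCC library had 31.1 FPKM of ZGLP1, 28.5% of the level in its oocyte, and the 8 oocyte markers were at 2.43% to 19.1% there, with a summed 131 FPKM against 27.7 or less in the other innerCCs. FIGLA was at 3.19% and SALL4 at 0.598% of that oocyte, and ELF3 and SIX3 were listed at 0. Its outerCC library had ZGLP1 at 20.3% of the oocyte and the markers at up to 18.4%, with FIGLA, SALL4 and SIX3 listed at 0. In both libraries ZGLP1 was thus at a larger share of its oocyte level than any of the 8 markers, while SALL4, at its highest of all oocytes in COC 190, was at or near 0. The innerCC of COC 176, with the high SIX3, had 1.57 FPKM summed over the markers, and 6 of the 8 were listed at 0.

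**Figure D5:**
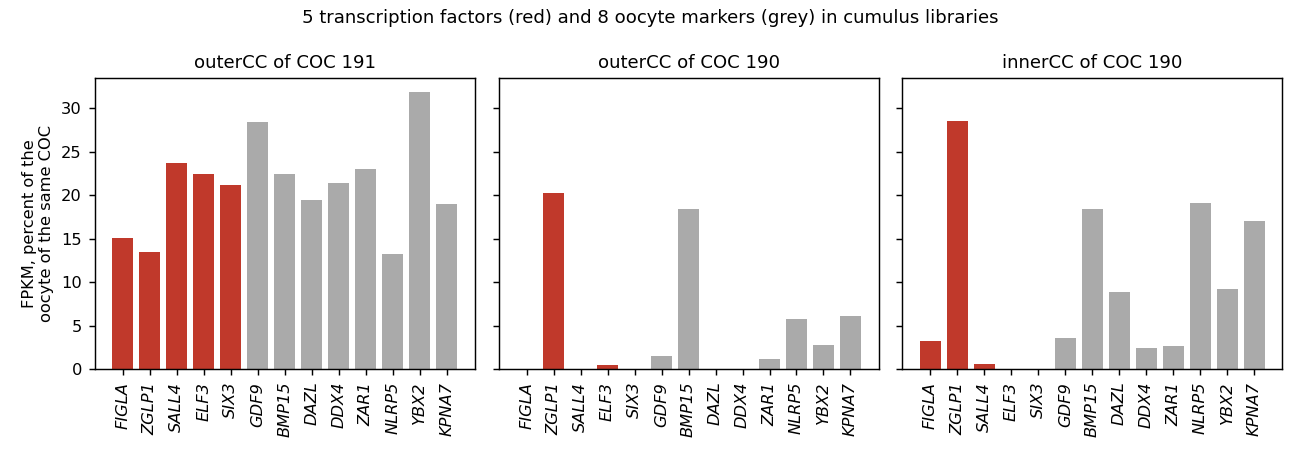
FPKM in the outerCC of COC 191 and in both cumulus libraries of COC 190, as a percentage of the FPKM in the oocyte of the same COC, for the 5 transcription factors (red) and 8 oocyte markers (grey). All 13 bars stood between 13.3% and 31.8% in the outerCC of COC 191, while in the libraries of COC 190 ZGLP1 reached 20.3% and 28.5% and SALL4 0% and 0.598%.

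The genes known to act with these factors were taken from lists drawn up for each, of which only those with a symbol in the study's gene tables could be matched. Most of these symbols stand in the study's lists of genes expressed only in oocytes or only in cumulus cells, made from these libraries, so the counts are given as a description and their direction is not independent evidence. Of the zona pellucida genes, the known targets of FIGLA, 0 of 4 could be matched.

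Among germline and folliculogenesis regulators, 6 of 10 were matched. There, 5 were higher in oocytes than in outerCCs and 0 lower, where 43.4% of all genes tested were higher, with a median log2 fold change of 3.82 against 0.25 over all genes tested. All 6 were higher than in innerCCs, as were 63.2% of all genes tested. GTF2A1L, a germ cell relative of a general transcription factor subunit, had 305 FPKM at the median oocyte (86.4 to 469), with a log2 fold change of 7.41 ± 0.40 against outerCCs (limma adjusted p = 1.14e-18). LHX8, a homeobox factor needed for follicle growth, had 69.0 FPKM (52.6 to 105) and 5.82 ± 0.25 (limma adjusted p = 1.37e-20). From the lowest to the highest oocyte, LHX8 thus varied by a smaller factor than any of the 5 members.

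TCF4, an E protein of the kind that basic helix-loop-helix factors such as FIGLA pair with, was the 1 of 7 matched in its list and had a log2 fold change of 3.13 ± 0.19 against outerCCs (limma adjusted p = 2.19e-17). Among SALL family and pluripotency factors, 3 of 7 were matched and 2, SOX2 and LIN28A, were higher in oocytes than in outerCCs, as were 43.4% of all genes tested. Like SIX3, SOX2 was high in a lone innerCC library, at 51.2 FPKM, and it was listed at 0 in 14 innerCCs. Of the NuRD subunits, 2 of 13 were matched and both, MTA2 and MBD3, were lower in oocytes than in outerCCs, as were 34.3% of all genes tested.

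The GATA list, chosen for the zinc finger of ZGLP1, was split. GATA2 and GATA3 were higher in oocytes than in outerCCs, as were 43.4% of all genes tested, with log2 fold changes of 3.23 ± 0.30 and 2.40 ± 0.17. GATA4 and GATA6, factors of granulosa cells, were lower, as were 34.3%, with -3.51 ± 0.20 and -4.60 ± 0.21 (4 of 8 matched). Against innerCCs, GATA2 and GATA3 were again higher, as were 63.2% of all genes tested, and GATA4 and GATA6 lower, as were 4.53%. Of the ETS factors related to ELF3, 5 of 11 were matched. ELK3 and ELF5 were higher in oocytes than in outerCCs, with 2.69 ± 0.21 and 1.18 ± 0.21, and ELF2 was lower, with -3.23 ± 0.21. Of all genes tested, 43.4% were higher and 34.3% lower there. EYA1, a transcriptional cofactor that factors of the SIX3 family work with, was higher in oocytes than in outerCCs, with a log2 fold change of 3.76 ± 0.30.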

How the data were processed

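The authors mapped reads with STAR 2.5.2 to UMD3.1, discarded those with several matches and, with picard 2.5, duplicates, and deposited the FPKM that Cufflinks 2.2.1 gave for each Ensembl gene. These were used unchanged. All 48 columns of the unfiltered table were matched to samples. The filtered table was not used.

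The members and gene lists were chosen with earlier results of these data known. The genes named are the 5 members, the genes with the 2 largest changes in each direction that passed within each list, and the 3 genes most like each member. The count over relatives and cofactors of SIX3, and a gene in that list, are not reported here. A gene was tested where its FPKM was over 0.5 in 8 or more libraries of a sample type. Sample types were compared with limma 3.58.1 (R 4.3.3) on log2(FPKM + 1) over the 32 libraries compared, called at FDR 0.01. The study's collection batch is not given in the labels and was not fitted. Correlations used permutations (scipy 1.17.1, numpy 2.4.6, pandas 2.3.3, Python 3.11.15), all of them for 8 oocytes, and were called at an adjusted p of 0.05. Figures were drawn with matplotlib 3.10.9. Scripts were tested on simulated data.

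The COC number pairs the samples of a COC. Their deviations from the sample-type means had a median correlation of 0.0536 between oocyte and innerCC, 0.0134 between oocyte and outerCC and 0.103 between innerCC and outerCC. Replicate libraries of a type correlated at 0.324 to 0.978, and 0 pairs were identical. The alternatives covered the pseudocount, the filter, scaling to the 75th percentile or to the same FPKM total, the COC block, the number of genes as a covariate, a trend in eBayes, the sets of COCs and leaving out each COC.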

Additional observations from a re-analysis of the deposited data

How the results depend on the processing

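Against outerCCs, 5 of the 5 genes were higher in oocytes under all alternatives run. Against innerCCs the count was 5, except for 4 with the 75th percentile scaling, which left out 4 innerCC libraries and in which SALL4 did not pass (limma log2 fold change 0.77, adjusted p = 0.180), and for 4 in COCs 176 to 184 alone. The 75th percentile scaling also multiplied the innerCC values of COCs 177, 178, 180 and 183 far more than those of the other libraries. Under this scaling the median over all genes tested, as a log2 fold change against outerCCs, was -0.24 in place of 0.25. The COC number as a replicate block changed no call of the 5 genes in these comparisons, with 5 higher in oocytes in both and 0 called between the cumulus layers.

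Of the 10 correlations between the 5 genes, 2 passed, and with 1 COC left out the count ran from 0 to 3. It was 0 without COC 180, where r of the pairs with SALL4 was 0.67 and 0.64 (adjusted permutation p = 0.0541 for both), and 0 without COC 190, where r was 0.49 and 0.55. It was also 0 in COCs 176 to 184 alone, 0 in COCs 185 to 192 alone, which have fewer oocytes, and 0 without both COCs 180 and 190. SALL4 with ELF3 also missed the threshold by Spearman's rho, and FIGLA with ZGLP1 passed it. ZGLP1 was the 1 gene of 5 that passed with the number of genes, and in COCs 185 to 192 alone the count was 0. Between 4 and 5 of the 5 genes had an SD above the median of genes when 1 COC was left out, and 4 with each oocyte scaled to the same FPKM total, where FIGLA was below it. The SD of SIX3 went from 0.64 to 0.88 with that scaling and to 0.85 with a pseudocount of 0.1, that of ZGLP1 from 1.74 to 1.26 without COC 180, and that of SALL4 from 1.15 to 0.77 without COCs 180 and 190. Scaling to the FPKM total, adjusting pairs for the number of genes and leaving out COCs 180 and 190 were chosen after seeing the data.

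The correlations of FIGLA with the zona pellucida genes could not be computed, since 0 of 4 were matched. FPKM give no counts, so sampling error at low values, such as those of SIX3, is unknown.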
